A study of Mus musculus with 19 samples.

Results

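The receptors that read TGF-beta, activins, Nodal and the bone morphogenetic proteins (BMPs) were followed through 9 genes in mouse stem cells that lacked 1 or both of the microRNA clusters miR-290 and miR-302. The 9 genes were taken by name (Tgfbr1, Tgfbr2, Tgfbr3, Acvr1, Acvr1b, Acvr2a, Acvr2b, Bmpr1a and Bmpr2) from an expression matrix of 12778 genes, and all 9 were found there. Tgfbr2 is a known target of these microRNAs, and the comparisons ask how its level and those of its relatives differed when the clusters were deleted singly or together.

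The 19 libraries were made with QuantSeq, a method that primes on the poly(A) tail and sequences a stretch near the 3′ end of each mRNA. Mouse embryonic fibroblasts reprogrammed with Oct4, Sox2 and Klf4 and kept for more than 18 passages gave the induced pluripotent stem cells (iPSC). The others were embryonic stem cells (ESC), and every culture was in medium with LIF and FBS. Wild-type (WT) iPSC gave 3 libraries. Knockout (KO) iPSC with genotype miR-290KO, miR-302KO or miR-290KO;miR-302KO (double KO below) gave 4 libraries each, from 2 colonies with 2 libraries per colony. The miR-290KO ESC and the miR-302KO ESC gave 2 libraries each. A colony stands for 1 derivation, so the libraries of a colony were averaged and the 3 KO iPSC groups have n = 2. The series text exempts the WT iPSC from its account of separate derivation. The spread within WT may therefore be only that between cultures or preparations of 1 line, and p-values against WT may not cover differences between WT lines. The main fit pools the spread within all 6 groups. Every p-value therefore mixes the spread between WT libraries, between KO iPSC colonies and between ESC libraries. No WT ESC and no double KO ESC were analysed here, and strain, sex and the kind of deletion are not given in the sources used here.

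Ligands of this family bind a complex of type II receptors, which are constantly active kinases, and type I receptors, which the type II kinases phosphorylate and which then phosphorylate Smad proteins. Tgfbr2 is the type II receptor for TGF-beta itself, Acvr2a and Acvr2b serve activins, Nodal and several BMPs, and Bmpr2 serves BMPs. Of the type I receptors, Tgfbr1 and Acvr1b signal through Smad2 and Smad3, and Acvr1 and Bmpr1a through Smad1 and Smad5. Tgfbr3, also called betaglycan, is a coreceptor with no kinase. In mouse pluripotent cells BMP signalling through Id genes works with LIF to hold off differentiation, and Nodal signalling keeps up its own target genes.

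The mature microRNAs are shown with their seed, bases 2 to 8, in capitals, because the seed is the part that pairs with a target mRNA. Sequences are from RefSeq (GRCm38.p6), from which 9 of the 3p microRNAs of both clusters were taken. Not every member of the clusters is among them, so the counts below are of these 9. The first 3 lie in the miR-302 cluster on the plus strand of chromosome 3, between 127545275 and 127545687, within an intron of Larp7, which is on the opposite strand. The other 6 lie in the miR-290 cluster on the plus strand of chromosome 7, between 3218674 and 3220837, and all but miR-290a-3p lie opposite an annotated exon of Nlrp12.
miR-302b-3p: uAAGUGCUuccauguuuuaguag
miR-302d-3p: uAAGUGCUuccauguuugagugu
miR-302c-3p: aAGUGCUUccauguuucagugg
miR-291a-3p: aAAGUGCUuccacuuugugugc
miR-294-3p: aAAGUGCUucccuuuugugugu
miR-295-3p: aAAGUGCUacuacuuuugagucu
miR-290a-3p: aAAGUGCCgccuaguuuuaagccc
miR-291b-3p: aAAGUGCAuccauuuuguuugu
miR-293-3p: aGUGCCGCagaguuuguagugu
5 of the 9, from both clusters, had the same seed, AAGUGCU. The seed of miR-302c-3p is the same run shifted by 1 base, those of miR-290a-3p and miR-291b-3p differ from it in the last base, and that of miR-293-3p shares the run GUGCC with the seed of miR-290a-3p. The microRNAs themselves were not measured, and no gene of the matrix is named for either cluster, so no value here checks the deletions.

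The 7-base match to the shared seed, AGCACTT on the mRNA strand, was looked for in the longest annotated 3′ UTR of each gene (GENCODE M21, GRCm38). Tgfbr2 had 3 matches and Tgfbr1 had 1, and the other 7 genes had none. Each is shown with the 15 bases before it, the match in capitals, so that the contexts can be compared. The positions count bases from the end of the coding sequence, and the coordinates are of the printed run.
Tgfbr2, position 491, chr9:116089880-116089902, minus strand: actcgggatagcgttAGCACTTg
Tgfbr2, position 2600, chr9:116087771-116087793, minus strand: tatatcaaaacctaaAGCACTTA
Tgfbr2, position 5016, chr9:116085355-116085377, minus strand: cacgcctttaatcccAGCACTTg
Tgfbr1, position 342, chr4:47411104-47411126, plus strand: tgtggcactaaatgaAGCACTTc
Acvr1, position 663, chr2:58446870-58446891, minus strand: ttatttattactggtGCACTTA
The Tgfbr2 match at position 2600 is followed by an A, which makes it the 8-base form of the site. The match at position 5016 follows the run TTTAATCCC, a context shared by 141 of the 2576 matches in all 3′ UTRs searched. For the shared seed, Acvr1 held only the 6-base match with a following A, in capitals above. With the T before it, the same place reads TGCACTT, the Acvr1 match for miR-291b-3p counted below. Such matches are common: 17.4% of 11839 genes of the matrix with an annotated 3′ UTR held at least 1 AGCACTT, and so did 61.0% of the 420 genes whose 3′ UTR was within 20% of the length of that of Tgfbr2 (6085 bases). Bmpr2 had none in a longer 3′ UTR (8529 bases), where 64.3% of genes of like length held at least 1. Matches to the other seeds were spread more widely: TGCACTT, for miR-291b-3p, was in Tgfbr2, Acvr1 and Acvr2a once each and in Bmpr2 at 2 places. AAGCACT, for miR-302c-3p, was in Tgfbr1, Tgfbr2 and Acvr2a once each and in Bmpr2 at 2 places, and some of these overlap the AGCACTT matches by 6 bases. GGCACTT, for miR-290a-3p, was in Bmpr2 alone of the 9, once, and GCGGCAC, for miR-293-3p, in none of them. TGCACTT was held by 14% of all genes with a 3′ UTR, AAGCACT by 14.4%, GGCACTT by 9.65% and GCGGCAC by 1.74%. A match is a run of letters and was not tested as a site.

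**Figure D1:**
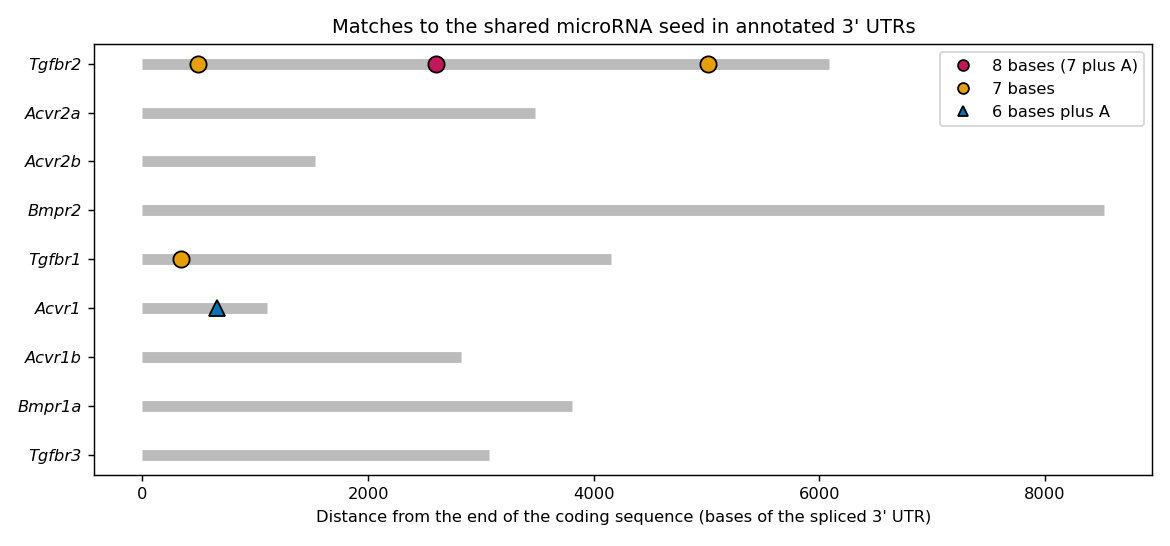
Each grey bar is the longest annotated 3′ UTR of a receptor gene, with the distance from the end of the coding sequence in bases on the horizontal axis, and each symbol is a match to the shared seed (circles, 7 or 8 bases; triangle, 6 bases and an A). Tgfbr2 carries 3 matches along 6085 bases, and Bmpr2, with the longest bar, carries none.

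The depth and the identity of the libraries touch every value below. Recovered reads per library ranged from 6251221 (miR-290KO iPSC colony 2, library 2) to 24096205, with a median of 16977560. Library 2 of miR-302KO iPSC colony 1 stood apart from its group, with a mean correlation of 0.852 with the other 3 libraries across genes. The 10 pluripotency markers summed to between 3432 and 5106 CPM (reads of a gene per 1000000 reads of the library) in the samples of 5 groups and to 88.7 and 104 CPM in both double KO colonies, so the label iPSC is kept for the double KO as a label only. Of the fibroblast markers, 5 of 13 had recovered reads and summed to 4.15 to 26.1 CPM in the double KO and 10.1 to 26.8 CPM elsewhere, and Col1a2, Col3a1, Dcn and Lum were not among them. Of the primitive endoderm markers, 3 of 8 had recovered reads (Gata4, Dab2 and Col4a1). They summed to 677 and 760 CPM in the double KO against 19.5 to 122 CPM elsewhere. Gata4 had 0 reads in the double KO, so the sum there is of Dab2 and Col4a1 alone. The 7 trophoblast markers with recovered reads, of 8, summed to 15.1 and 62.4 CPM in the double KO and 112 to 726 CPM elsewhere. The 4 neural markers with recovered reads, of 6, summed to 128 and 132 CPM in the double KO and 27.4 to 184 CPM elsewhere. A marker without recovered reads was absent from the matrix or could not be solved, so its level is not known here. The part of these marker differences in the receptor results was not tested, and in bulk RNA fewer cells of a type and less RNA per cell cannot be told apart.

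In the double KO iPSC, 5 of the 9 receptor mRNAs were higher than in WT iPSC and 1 was lower. Tgfbr2 rose from almost no reads, the type II receptors Acvr2a and Bmpr2 and the type I receptors Acvr1 and Bmpr1a rose from a moderate level, and Acvr2b fell. Tgfbr1, Acvr1b and Tgfbr3 did not pass the test. The background is wide: 49% of all 12778 genes passed in this comparison, 27.4% higher and 21.5% lower (limma on log2 values, Benjamini-Hochberg adjusted p under 0.05 over all genes). The split depends on the scaling: with median-of-ratios scaling 2800 genes passed as higher and 3503 as lower, against 3502 and 2753 here, and the same 6 receptor genes passed in the same directions. The 9 genes had a median log2 change of 1.2 against 0.16 for all genes, which became −0.08 under that scaling. Libraries of the groups did not overlap for 6 of the 9, where 63.1% of 12231 genes with recovered reads showed no overlap.

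Among the type II receptors, Tgfbr2 was the nearest to absent in WT iPSC. Its 3 WT libraries had 0, 1.08 and 0 CPM, that is 20 reads in 1 library and none in the others, and 0 reads allowed up to 0.166 and 0.212 CPM there (3 reads, counting error only). The double KO libraries had 20.6 and 20.3 CPM in colony 1 and 22.8 and 18.1 CPM in colony 2. The groups did not overlap, and each double KO library was also above every library of the other 5 groups, the highest of which had 5.84 CPM. The mean was 20.5 ± 0.02 CPM (SD, n = 2) against 0.36 ± 0.62 (SD, n = 3), a ratio of 56.8 that rests on those 20 reads. On the fitted log2 scale the change was 6.12 (SE 1.07, limma adjusted p = 5e-04), and it was 4.07 where the value added before the logarithm was 1 CPM.

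Bmpr2, the type II receptor that BMPs share, had the smallest p of the 9. Its WT libraries had 16.1, 9.68 and 11.6 CPM, and its double KO libraries had 74.0, 70.5, 62.6 and 72.1 CPM. The 2 groups were far apart, and the colonies of the double KO were alike. The means were 69.8 ± 3.43 CPM (SD, n = 2) and 12.5 ± 3.32 (SD, n = 3), a log2 change of 2.5 (SE 0.28, limma adjusted p = 1.47e-05).

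Acvr2a, a type II receptor for activins, had 5.2, 5.14 and 3.88 CPM in WT iPSC. In the double KO it had 27.0 and 35.5 CPM in colony 1 and 17.7 and 16.4 CPM in colony 2. Every double KO library was above every WT library, and colony 1 was above colony 2. The log2 change was 2.26 (SE 0.51, limma adjusted p = 0.00283).

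Acvr2b, the close relative of Acvr2a, went the other way. Its WT libraries had 23.2, 26.2 and 53.5 CPM, so that replicate 3 was far above the other two. Its double KO libraries had 19, 21.9, 13.5 and 14.7 CPM, all below the lowest WT library, by a narrow gap in colony 1. The log2 change was −0.91 (SE 0.34, limma adjusted p = 0.0445). It passed in 12 of 25 alternative fits: without WT replicate 3 the change was −0.54 and without double KO colony 2 it was −0.64, and neither passed (adjusted p from 0.0115 to 0.259 over the 25).

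Of the type I receptors, Acvr1, which carries BMP signals to Smad1 and Smad5, moved furthest. It had 12.7, 14.3 and 16.0 CPM in WT iPSC. The double KO libraries had 89.8 and 73.9 CPM in colony 1 and 44.0 and 50.1 CPM in colony 2. No double KO library came near the WT range, and the colonies did not overlap with each other. The log2 change was 2.1 (SE 0.49, limma adjusted p = 0.00374). Without double KO colony 1 it was 1.71 and missed the threshold narrowly (adjusted p = 0.0502, and from 0.000784 to 0.0544 over 25 alternatives).

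Bmpr1a, the main type I receptor for BMP4 in pluripotent cells, was among the most evenly measured. It had 32.3, 33.8 and 32.0 CPM in WT iPSC and 73.3, 70.2, 86.3 and 73.0 CPM in the double KO. The means were 75.7 ± 5.6 CPM (SD, n = 2) and 32.7 ± 0.95 (SD, n = 3), a log2 change of 1.2 (SE 0.2, limma adjusted p = 0.000305).

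Tgfbr1, the type I partner of Tgfbr2 and the other gene with a match to the shared seed, had 19.7, 16.8 and 15 CPM in WT iPSC. In the double KO it had 20.6, 10.9, 11.6 and 15.6 CPM, so the groups overlapped. Its log2 change of −0.27 had a 95% interval from −0.85 to 0.32. Over all genes of the matrix with a 3′ UTR, 34.0% of those with at least 1 AGCACTT match passed as higher in the double KO and 26.6% of those with none, and both Tgfbr2 and Tgfbr1 are in the first set. Longer 3′ UTRs held a match more often, and of the 420 genes with a 3′ UTR about as long as that of Tgfbr2, with or without a match, 39.3% passed as higher.

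Acvr1b, the type I receptor for activin and Nodal, was close to the detection limit throughout, with 0.27 to 1.13 CPM in WT iPSC, 0.43 to 1.1 CPM in the double KO, and no more than 46 reads in any library. Its log2 change of 0.02 had a 95% interval from −2.03 to 2.07, which leaves changes of 4-fold either way within the error, and its sign was the opposite under another scaling (−0.17). The coreceptor Tgfbr3 had 11.1, 12.5 and 14.7 CPM in WT iPSC. In the double KO it had 15.1 and 18.2 CPM in colony 1 and 6.6 and 7.78 CPM in colony 2, on either side of the WT range. Its log2 change was −0.22 (95% interval −1.15 to 0.72).

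**Figure D2:**
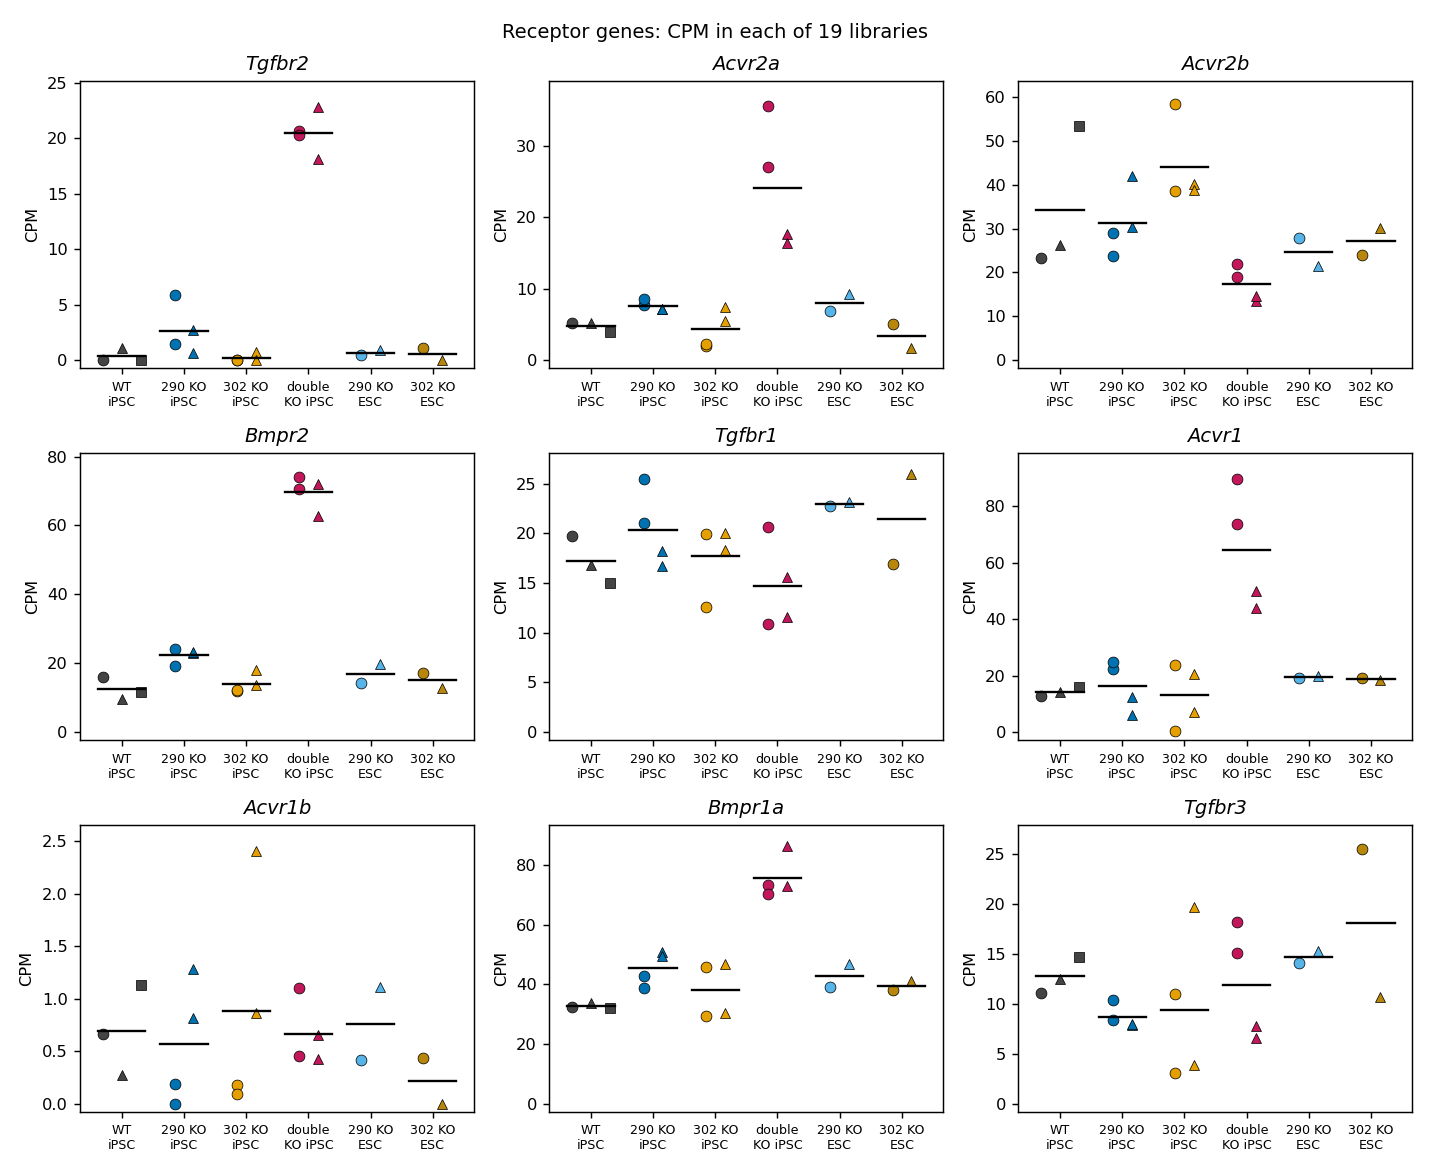
Each panel shows 1 receptor gene, with the level in CPM from 0 on the vertical axis and the 6 groups on the horizontal axis. Each symbol is 1 library, circles, triangles and squares stand for sample 1, 2 and 3 of the group (a colony in KO iPSC), and the bar is the mean over samples. The 4 double KO libraries stand above all others for Tgfbr2, Bmpr2, Bmpr1a, Acvr1 and Acvr2a, and for Tgfbr1, Tgfbr3 and Acvr1b the double KO overlaps WT iPSC. The share of all genes for which the double KO stands above all other libraries was not counted.

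The single deletions gave smaller differences, and 0 of the 9 genes passed against WT iPSC in either. In miR-290KO iPSC, where 1.57% of all genes passed, 3 receptor genes had an unadjusted p under 0.05, all of them higher, and 16.7% of all genes did in either direction. Tgfbr2 had 1.48 and 5.84 CPM in colony 1 and 0.66 and 2.71 CPM in colony 2, with no library at 0, and overlapped the 1.08 CPM of WT replicate 2. Its log2 change of 2.88 had a 95% interval from 0.57 to 5.19 and an adjusted p of 0.2 (limma), and it was 1.32 where 1 CPM was added before the logarithm. Bmpr2 had 24, 19.2, 23.0 and 23.1 CPM, all above the WT libraries (log2 change 0.86, SE 0.28, limma adjusted p = 0.143). Bmpr1a had 38.9, 43.0, 51.0 and 49.5 CPM, again all above WT (0.47, SE 0.2, limma adjusted p = 0.253). Acvr2a, at 7.12 to 8.53 CPM, did not overlap WT either, and Tgfbr3, at 7.91 to 10.4 CPM, was below it in every library. No overlap was seen for these 4 of the 9 genes and for 21.6% of all genes with reads. The colonies of miR-290KO iPSC differed in Acvr1, with 22.5 and 24.8 CPM in colony 1 and 5.89 and 12.3 CPM in colony 2, on both sides of WT.

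In miR-302KO iPSC, where 0.0313% of all genes passed (4 genes, with 1928, or 15.1%, at an unadjusted p under 0.05), the libraries of the 9 genes overlapped those of WT iPSC in every case, and 9.44% of all genes with reads had no overlap. Tgfbr2 had 0 and 0 CPM in colony 1 and 0.73 and 0.05 CPM in colony 2, that is 15 reads over the 4 libraries. Its log2 change was −0.27 with a 95% interval from −2.58 to 2.04. Acvr1 was the most uneven, with 23.8, 0.46, 7.17 and 20.6 CPM, and the 0.46 CPM (5 reads) came from the library that stood apart. The 95% interval of its log2 change ran from −2.14 to 0 (limma adjusted p = 0.33). Without that library the change was 0.25, and without the whole of colony 2, which leaves colony 1 alone, it was −1.92 and passed (adjusted p = 0.036). Acvr2b had 38.6, 58.4, 40.3 and 38.8 CPM, and the 58.4 CPM came from the same library. Bmpr2, at 11.8 to 18.0 CPM, and Bmpr1a, at 29.4 to 46.7 CPM, spread around the WT libraries.

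**Figure D3:**
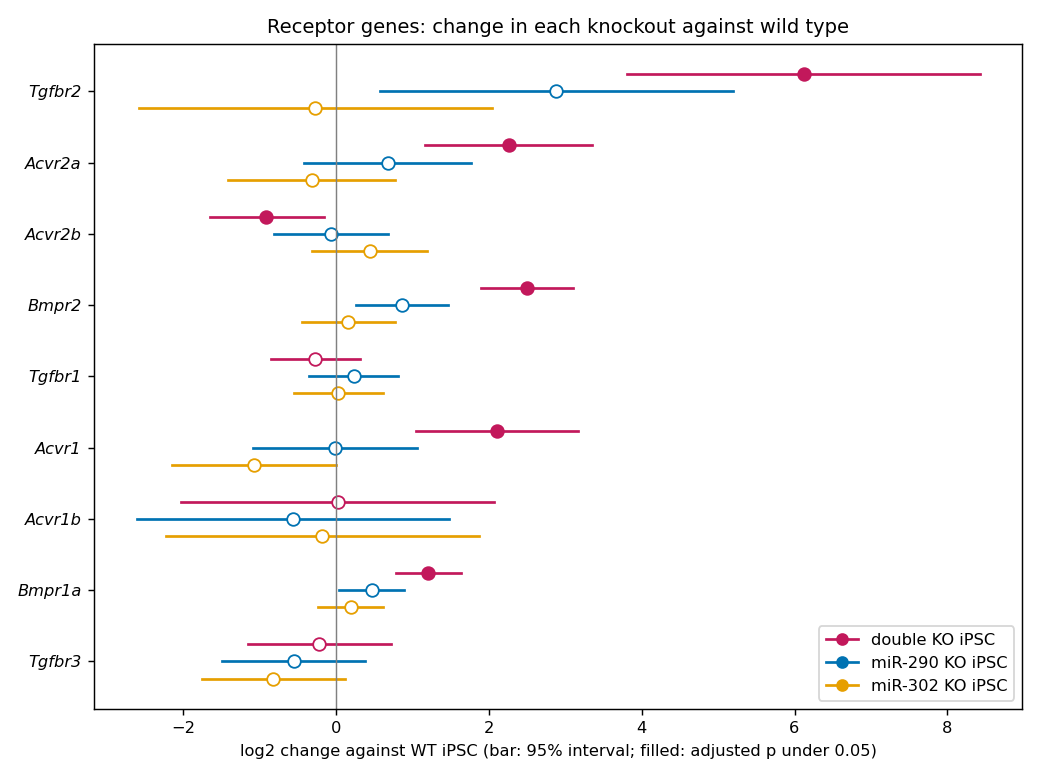
Points give the log2 change of each receptor gene against WT iPSC (horizontal axis) in double KO, miR-290KO and miR-302KO iPSC, with 95% intervals from the limma fit over 13 samples, and filled points have an adjusted p under 0.05. The 6 filled points all belong to the double KO, and the widest intervals belong to Tgfbr2 and Acvr1b, which had the fewest reads.

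The double KO was also compared with miR-290KO iPSC, where both groups lack miR-290 and differ in miR-302. The groups are different colonies, so the comparison does not follow a deletion made in the same cells. Here 4 of the 9 genes passed, all higher (32.4% of all genes passed, 15.6% higher). Bmpr2 differed by 1.64 on the log2 scale (SE 0.3, limma adjusted p = 0.0014) and passed in all 25 alternatives. Acvr1 differed by 2.11 (SE 0.54, limma adjusted p = 0.00989), a call that was lost without miR-290KO colony 2 (1.38, adjusted p = 0.115) or without double KO colony 1 (1.72, adjusted p = 0.0881). Bmpr1a differed by 0.73 (SE 0.21, limma adjusted p = 0.0199) and lost its call in 4 of 25 alternatives: without miR-290KO colony 1 (0.59), without either double KO colony (0.81 and 0.66) and with only the groups compared (adjusted p = 0.0685). Acvr2a differed by 1.58 (SE 0.55, limma adjusted p = 0.0451) and passed in 14 of 25 alternatives. Leaving out a single colony reduced the 4 to as few as 1: 1 gene passed without double KO colony 1, and 2 passed without either miR-290KO colony. Tgfbr2 was 1 of 6 genes of the 9 with no overlap between these groups (46.5% of all genes with reads), and its difference of 3.24 (SE 1.17) had an adjusted p of 0.0501 by limma, on the far side of the threshold. It passed in 11 of 25 alternatives, with adjusted p from 0.000531 to 0.219.

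Against miR-302KO iPSC, 6 of the 9 genes passed in the double KO (46.9% of all genes passed, 28.5% higher and 18.4% lower). They were the 6 that passed against WT iPSC, each in the same direction. The comparisons share the double KO libraries. Tgfbr2 was higher by 6.39 (SE 1.17, limma adjusted p = 0.000786), or by 4.21 with 1 CPM added before the logarithm, and Bmpr2 by 2.34. Acvr2a was higher by 2.58 and Bmpr1a by 1.01. Acvr1 was higher by 3.18, and by 1.85 without the library with 5 reads (adjusted p = 0.00494, and from 0.000167 to 0.0173 over 25 alternatives). Acvr2b was lower, with a log2 difference of −1.35 (SE 0.38, limma adjusted p = 0.0112), and this call was lost without miR-302KO colony 1 (−1.21) or without double KO colony 2 (−1.08).

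The double KO change was also set against the sum of both single KO changes, on the log2 scale and in the same fit. The excess passed for 2 of the 9 genes, both with a positive value, where 23.6% of all genes passed, 12% with a positive value. Acvr1 exceeded the sum by 3.19 (SE 0.73, limma adjusted p = 0.00856), and by 1.86 without the library with 5 reads (adjusted p = 0.0445, and from 0.00157 to 0.053 over 25 alternatives). Bmpr2 exceeded it by 1.48 (SE 0.41, limma adjusted p = 0.0226), a call that was lost without either miR-290KO colony (1.42 and 1.53), without miR-302KO colony 1 (1.29), without double KO colony 1 (1.43) or with the replicate block (1.51, adjusted p = 0.0513). For Tgfbr2 the excess was 3.51 with a 95% interval from 0.08 to 6.94 (adjusted p = 0.126), for Acvr2a 1.9 (0.28 to 3.53, adjusted p = 0.0847) and for Acvr2b −1.28 (−2.39 to −0.17, adjusted p = 0.0878), all by limma. Each of these passed in some alternatives: Tgfbr2 with 1 CPM added before the logarithm (2.88, limma adjusted p = 0.0055), Acvr2a without miR-302KO colony 2 (2.67, adjusted p = 0.0185), Acvr2b without WT replicate 3 and with the replicate block (−1.65 in both, adjusted p = 0.0169 and 0.0267), and all 3 with each library as a sample.

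Between the 2 single KO iPSC lines 0 of the 9 genes passed (2.25% of all genes did), and 2 had an unadjusted p under 0.05, as did 18.5% of all genes, a like share. Bmpr2 was the 1 gene of the 9 with no overlap there (12.6% of all genes with reads had none), at 19.2 to 24 CPM in miR-290KO and 11.8 to 18.0 CPM in miR-302KO iPSC. Without miR-302KO colony 2, which leaves colony 1 alone, the Acvr1 difference between these groups was 1.91 against 1.07. Without the library with 5 reads, which is in colony 1, that difference was −0.26. Tgfbr2 averaged 2.67 ± 1.4 CPM in miR-290KO and 0.2 ± 0.28 CPM in miR-302KO iPSC (SD, n = 2 each).

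In the ESC of both genotypes, every library was below every double KO iPSC library for the 5 genes called higher in the double KO than in WT iPSC. These 5 were picked for being high in the double KO. The share of all genes that separated from the ESC in this way was not counted. Some ESC libraries lay outside the range of the WT and single KO iPSC libraries: Tgfbr3 reached 25.5 CPM in miR-302KO ESC (highest 19.7 in those iPSC) and Tgfbr1 26.0 CPM (highest 25.5), and Acvr2b was at 21.4 CPM in miR-290KO ESC (lowest 23.2). Tgfbr2 had 0.48 and 0.87 CPM in miR-290KO ESC and 1.07 and 0 CPM in miR-302KO ESC. Bmpr1a had 39.1 and 46.7 CPM against 38.1 and 41.2 CPM, Bmpr2 14.1 and 19.7 against 17.2 and 12.7 CPM, and Acvr1 19.2 and 19.7 against 19.2 and 18.5 CPM. Acvr2a was higher in miR-290KO ESC, at 6.85 and 9.26 CPM, than in miR-302KO ESC, at 5.08 and 1.77 CPM, against 2.05 to 8.53 CPM in those iPSC. No receptor gene passed the limma test between these ESC (0.587% of all genes did), 1 of the 9 and 12.8% of all genes had an unadjusted p under 0.05, and Acvr2a and Acvr1 were the 2 without overlap, where 46.7% of all genes had none. In the comparisons of iPSC with ESC of the same genotype, and in the test of whether the difference between genotypes differed between iPSC and ESC, 0 of the 9 and 0% of all genes passed by limma. At an unadjusted p under 0.05 there were 0 of the 9 for miR-290KO (3.85% of all genes), 2 of the 9 for miR-302KO (10.5%) and 0 of the 9 for the difference between them (4.32%). Without miR-302KO iPSC colony 2, which leaves colony 1 alone, the Acvr1 difference between miR-302KO iPSC and ESC was −2.31 against −1.47. Without the library with 5 reads, which is in colony 1, that difference was −0.14.

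Ordered by group mean, the double KO came first for 5 genes and last for Tgfbr1 and Acvr2b. Behind it, Bmpr2 ran from miR-290KO iPSC (22.3 ± 1.06 CPM, SD, n = 2) through miR-290KO ESC (16.9 ± 3.99), miR-302KO ESC (15 ± 3.23) and miR-302KO iPSC (13.9 ± 2.64) to WT iPSC (12.5 ± 3.32, n = 3), and neighbours among the last 4 differed by less than their SDs. Bmpr1a had the same order, from 45.6 ± 6.58 CPM in miR-290KO iPSC to 32.7 ± 0.95 CPM in WT iPSC. For Tgfbr2, the 4 groups below miR-290KO iPSC had means from 0.2 to 0.67 CPM and their libraries overlapped. The means of Tgfbr1 spanned 14.7 to 22.9 CPM and those of Tgfbr3 8.67 to 18.1 CPM, with neighbours overlapping throughout.

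The make-up of the receptor mRNAs differed between the groups. QuantSeq counts about 1 fragment per mRNA at its 3′ end, so the CPM were not divided by transcript length, although genes can still differ in how well their 3′ ends are caught. The 9 genes together summed to 130 ± 15.9 CPM in WT iPSC (SD, n = 3), 156 ± 2.12 in miR-290KO iPSC, 142 ± 7.78 in miR-302KO iPSC and 299 ± 45.3 in the double KO (SD, n = 2 each). The 4 type I receptors went from 64.9 ± 0.64 to 156 ± 20.5 CPM between WT and double KO iPSC, and the 4 type II receptors from 51.9 ± 14.9 to 132 ± 17.7 CPM. Acvr2b made up 52.0%, 62.3% and 77.6% of the type II sum in the WT samples and 14.2% and 11.9% in the double KO colonies. Bmpr2 went from 36.3%, 23.0% and 16.8% to 50.0% and 56.6%. Tgfbr2 made up 0%, 2.57% and 0% in WT and 14.2% and 17.2% in the double KO, and 6.14% and 2.48% in the miR-290KO colonies. In every sample outside the double KO, Acvr2b was the largest share of the 4, and in both double KO colonies Bmpr2 was.

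**Figure D4:**
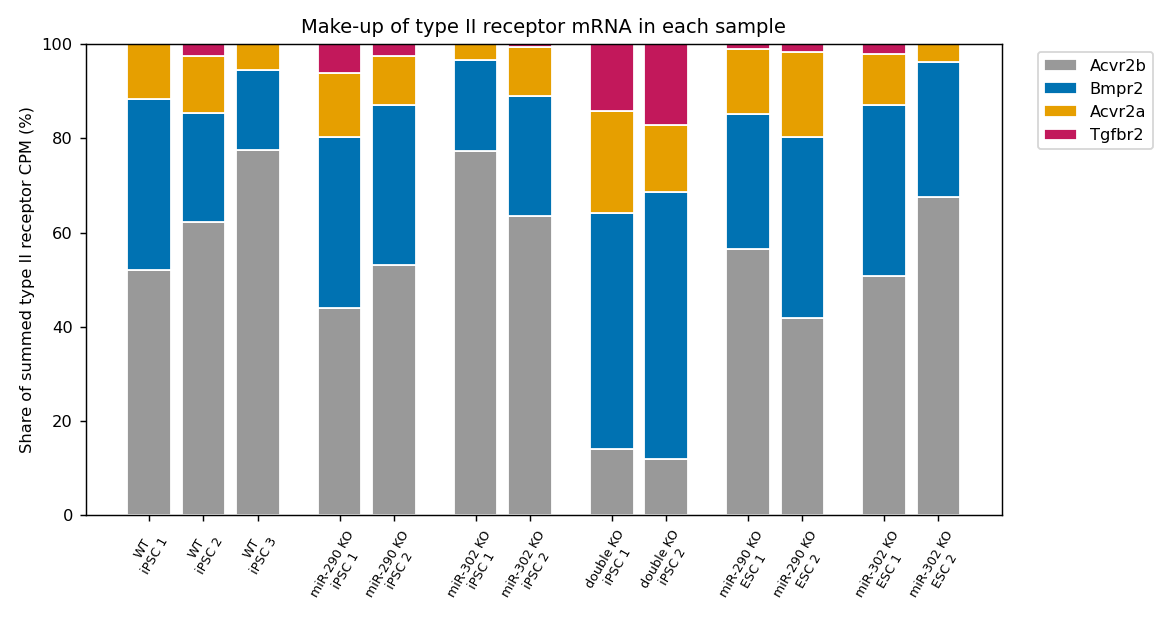
Stacked bars give the share of the summed type II receptor CPM taken by Acvr2b, Bmpr2, Acvr2a and Tgfbr2, in percent from 0 to 100, with 1 bar for each of the 13 samples. Acvr2b is the largest block in every bar but those of the double KO, where it falls to 14.2% and 11.9% and Tgfbr2 takes 14.2% and 17.2%.

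As a description of how the genes varied together, Pearson's r was taken over the 13 samples on the log2 scale. The samples include the double KO, which lay apart from the rest for 5 genes, so r is also given over the 11 samples without it, a choice made after the data were seen. Bmpr1a and Bmpr2 were the closest pair (r = 0.94, and 0.71 without the double KO). Tgfbr2 had r = 0.89 with Acvr2a (0.74 without), 0.87 with Bmpr2 (0.56) and 0.85 with Bmpr1a (0.52), and −0.72 with Acvr2b (−0.49). Acvr1, also called higher, lost more of its r: 0.75 with Tgfbr2 (0.39 without), 0.77 with Acvr2a (0.42), 0.75 with Bmpr2 (0.2) and 0.68 with Bmpr1a (0.05). Among 12172 genes with at least 1 CPM in some group, those with a pattern most like that of Tgfbr2 were Loxl4 (r = 0.978), Foxq1 (0.972) and Capn2 (0.97). For these and the like genes below, r was taken over all 13 samples and not without the double KO. Loxl4, a lysyl oxidase that crosslinks matrix proteins, averaged 0.41 CPM in WT and 66.3 CPM in double KO iPSC. Foxq1, a forkhead transcription factor, averaged 0.47 and 22.8 CPM. For Bmpr2 the 3 were Kif13a (0.982), Scoc (0.979) and Prkcdbp (0.974), for Bmpr1a Zfhx3 (0.976), Erbb2 (0.971) and Reep3 (0.969), and for Acvr2a Insl6 (0.972), Tmem9 (0.962) and Tada1 (0.961). Acvr1 was most like Actr3 (0.973), Ahcyl1 (0.972) and Ccdc23 (0.97), and Acvr2b most like Pold1 (0.909), Bckdha (0.903) and Gpx4 (0.895).

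The rest of the pathway was counted in 5 textbook lists. Their counts stand beside 27.4% of all genes higher and 21.5% lower in the double KO than in WT iPSC, and nothing particular to a list is read from them. Of the other receptors and coreceptors, 8 of 13 were in the matrix, and in the double KO 3 were higher and 3 lower than in WT iPSC, with a median log2 change of −0.91 (0.16 for all genes). Eng, endoglin, a TGF-beta and BMP coreceptor of endothelial cells, rose from 7.45 ± 1.62 to 87.8 ± 34.8 CPM (3.47, SE 0.42), and Rgmb, a BMP coreceptor, from 1.95 ± 1.07 to 6.78 ± 1.46 CPM (1.86, SE 0.52). Tdgf1, or Cripto, the coreceptor that Nodal needs, fell from 433 ± 16.3 to 8.52 ± 7.44 CPM (−6.01, SE 0.47), and is also 1 of the 10 pluripotency markers. Amhr2, the receptor for anti-Müllerian hormone, fell from 6.41 ± 1.73 to 0.26 ± 0.02 CPM (−4.01, SE 0.48). All levels here are means with SD over 3 WT samples and 2 colonies.

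Of the ligands, 12 of 27 were in the matrix, 4 higher and 3 lower, shares near those of all genes (27.4% and 21.5%), with a median of 1.2. Bmp1, a protease named among the BMPs that processes matrix and latency proteins, rose from 1.32 ± 1.36 to 20.2 ± 5.44 CPM (log2 change 4.33, SE 0.84), and Bmp4, a ligand of Bmpr1a and Bmpr2, from 6.64 ± 3.1 to 65.1 ± 36.0 CPM (3.2, SE 0.51). Nodal, which signals through Acvr1b with Acvr2a or Acvr2b, fell from 119 ± 9.82 to 3.64 ± 2.61 CPM (−5.3, SE 0.33). Bmp7 fell from 7.88 ± 0.48 to 0.18 ± 0.21 CPM (−4.8, SE 0.78). Neither Tgfb1 nor Tgfb3 was among the 12, and Tgfb2, a ligand that Tgfbr2 binds with the help of Tgfbr3, had 1.2 ± 1.21 CPM in WT iPSC and 2.61 ± 2.7 CPM in the double KO (adjusted p = 0.456 by limma).

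Extracellular inhibitors and latency proteins had 11 of 16 members in the matrix, 6 higher and 2 lower, with a median of 0.97. Fstl1, a secreted follistatin-like protein, rose from 196 ± 82.2 to 4106 ± 512 CPM (log2 change 4.46, SE 0.3), and Nbl1, a BMP antagonist, from 0.73 ± 0.32 to 13 ± 1.12 CPM (3.94, SE 0.83). Lefty1 and Lefty2, inhibitors of Nodal that Nodal itself induces, fell with log2 changes of −5.99 (SE 0.4) and −8.86 (SE 0.24), and no reads could be recovered for either. They are also 2 of the response genes below.

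Of 22 Smads and intracellular regulators, 20 were in the matrix, 9 higher and 3 lower, with a median of 0.64. Zfyve16, an endosomal adaptor for Smads, rose from 2.12 ± 0.45 to 9.48 ± 1.29 CPM (log2 change 2.09, SE 0.55), and Smad3, the Smad of the TGF-beta and activin branch, from 15.1 ± 3.16 to 47.3 ± 13.8 CPM (1.63, SE 0.38). Tgif1, a corepressor of Smad2 and Smad3, fell from 132 ± 10.1 to 30.2 ± 12.4 CPM (−2.19, SE 0.37). Smad7, an inhibitory Smad that acts on type I receptors, fell from 20.1 ± 2.54 to 11.7 ± 5.2 CPM (−0.86, SE 0.27).

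The response genes had 29 of 32 names in the matrix, 13 higher and 9 lower, with a median of 0.94. Thbs1, thrombospondin, an activator of latent TGF-beta, rose from 0.44 ± 0.53 to 172 ± 125 CPM (log2 change 8.43, SE 0.92), and Id1, a direct BMP target, from 27.0 ± 11.1 to 673 ± 294 CPM (4.63, SE 0.42). The largest falls were Lefty2 and Lefty1. In miR-290KO iPSC, 4 of the 74 different genes of the 5 lists passed, where 1.57% of all genes did, and all 4 were higher: Fstl1 (1.68, SE 0.3) and, among the response genes, Id1 (2.74, SE 0.42), Id2 (1.9, SE 0.32) and Gata3 (2.35, SE 0.33). Gata3 was lower in the double KO (−1.5, SE 0.33). In miR-302KO iPSC, 0 genes of the 5 lists passed the limma test.

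**Figure D5:**
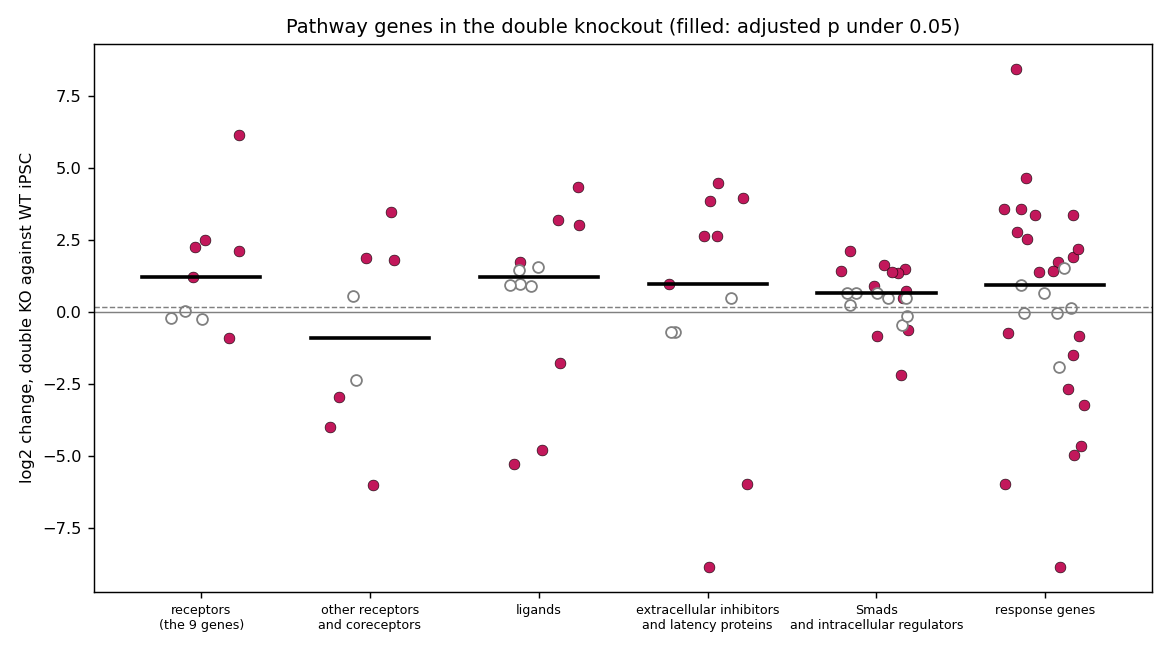
Each point is 1 gene, with its log2 change between double KO and WT iPSC on the vertical axis, for the 9 receptor genes and 5 pathway lists (genes of 2 lists are drawn in both). Filled points have an adjusted p under 0.05, black bars are medians and the dashed line is the median of all genes, 0.16. The receptors lie between −0.91 and 6.12. The response genes reach further on both sides, and the ligands and inhibitors reach further only below.

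The authors' deposited table for double KO against WT iPSC lists 6 of the 9 genes among 8672 genes with adjusted p up to 0.0499, the same 6 that passed here. Of the 12231 genes with recovered reads, 7506 were matched to genes of that table, so most genes are listed in it. It rests on the same libraries, so it is not a separate check. The authors' deposited table gives log2 fold changes of 5.47 for Tgfbr2, 2.18 for Bmpr2, 2.04 for Acvr2a, 1.88 for Acvr1, 0.91 for Bmpr1a and −1.26 for Acvr2b. Their deposited tables for miR-290KO (1429 genes) and miR-302KO iPSC (43 genes) list 0 of the 9. Of the same 12231 genes, 1307 and 38 were matched to genes of these tables.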

How the data were processed

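The authors deposited 1 matrix of log2 values for 12778 genes. The submitters' processing notes name Trim Galore 0.66, STAR, Salmon 1.4.0, limma, DESeq2 1.34.0 and mm10, with no role or order. The authors' deposited comparison tables hold a mean signal (normalized counts), log2 fold changes, scores (the test statistic) and p-values. 6 columns of the matrix belong to no sample here and were not used. The values behaved as log2 of reads plus a small added amount, so whole reads were recovered for 12231 genes (99.6% of values whole within 0.02 reads) and scaled to CPM by the library size implied by that amount. limma 3.58.1 (R 4.3.3, trended variance, 7 residual degrees of freedom) was fitted once to the deposited log2 values of 13 samples in 6 groups. It covered 11 comparisons, with Benjamini-Hochberg adjustment over all genes. The fit was also run on simulated data with far fewer changed genes than the double KO, so that run does not check the calls here. The members, lists and tests were chosen with earlier results of these data known. Pathway genes named are the 2 called genes of each list with the largest rise and the 2 with the largest fall, and like genes are the 3 with the highest r. Intervals are 95%. 25 alternatives were tried, 2 of them added after seeing the data.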

Additional observations from a re-analysis of the deposited data

Results flagged for a closer look

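Of 27 sets of 4 libraries (9 genes in 3 KO iPSC groups), 2 held a library far from the other 3, where chance flags about 1 in 20. Tgfbr2 was at 0.73 CPM in library 1 of miR-302KO iPSC colony 2 and at 0 to 0.05 CPM in the other 3, a gap of 0.835 of the group's range that rests on 14 reads. Acvr2b was at 58.4 CPM in library 2 of miR-302KO iPSC colony 1 and at 38.6 to 40.3 CPM in the other 3, a gap of 0.899 of the range. That library is the one that stood apart across all genes.

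For 2 genes the change on losing a cluster differed with the state of the other cluster: the double KO change exceeded the sum of the single KO changes by 3.19 on the log2 scale for Acvr1 and by 1.48 for Bmpr2 (limma, adjusted p = 0.00856 and 0.0226). These are 2 of the 9, a share near the 23.6% of all genes that passed. For Acvr1 the excess was 1.86 without the library that stood apart, and for Bmpr2 the call was lost in 5 of 25 alternatives.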

How the results depend on the processing

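The calls of Tgfbr2, Bmpr2, Acvr2a and Bmpr1a as higher in the double KO than in WT iPSC held in all 25 alternatives. The call of Acvr1 was lost in 2, without double KO colony 1 (1.71) and with each library as a sample (2.1), and the call of Acvr2b was lost in 13. Leaving out 1 sample at a time, the number of receptor genes called ranged from 4 to 6 for double KO against WT, 1 to 5 against miR-290KO, 5 to 6 against miR-302KO, 1 to 3 for the excess over the sum, and 0 to 1 for miR-302KO against WT, miR-290KO against miR-302KO iPSC and miR-302KO iPSC against ESC. For the other 4 comparisons it was 0 throughout. With each library as a sample, which counts libraries of 1 colony as independent, 1 gene passed in miR-290KO against WT, 2 between the single KO iPSC and 4 for the excess.

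Small changes turned sign. For double KO against WT, Acvr1b went from 0.02 to −0.17 with median-of-ratios scaling, which moved the median of all genes from 0.16 to −0.08, and to −0.01 with 1 CPM added. For miR-290KO against WT, Acvr1 went to 0.01 with 1 CPM added, 0.02 with sample weights and 0.08 with the replicate block, and Acvr2b to 0.06 with weights, 0.31 with the block and 0.05 without the library with the fewest reads. For miR-302KO against WT, Acvr1b went to 0.03 with 1 CPM added and 0.2 with the block, and Tgfbr1 to −0.01 with weights and −0.06 with the block. Without the miR-302KO library that stood apart, Acvr1 went to 0.25 against WT and to −0.26 for miR-290KO against miR-302KO iPSC. The cause was not tested. Without 1 sample at a time, changes against WT spanned 0 for Acvr1 (−0.74 to 0.72), Acvr1b (−1.77 to 0.64) and Acvr2b (−0.29 to 0.31) in miR-290KO, for Acvr1b (−1.45 to 1.08), Acvr2a (−1.09 to 0.44), Bmpr2 (−0.02 to 0.36), Tgfbr1 (−0.11 to 0.16) and Tgfbr2 (−1.03 to 0.76) in miR-302KO, and for Acvr1b (−0.41 to 0.4) and Tgfbr3 (−0.81 to 0.38) in the double KO.

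Of 30 pairs of same-numbered samples, 4 had deviations from their groups with a correlation over 0.1 (range −0.27 to 0.18). The KO groups hold so few samples that the deviations within a group mirror each other. These correlations are therefore not independent, and they cannot show whether the numbers pair the samples. With the replicate block 5 receptor genes passed for double KO against WT, without Acvr2b (−0.54). Depth limits Tgfbr2 outside the double KO and Acvr1b everywhere. The filter at 1 CPM gave no value for Acvr1b.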
